A study of Homo sapiens with 12 samples.

Results

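The genes described here are 10 of the 26475 gene symbols in the count table: TAGLN, ACTA2, ACTB, ACTG1, CNN1, CNN2, TPM1, TPM2, MYL9 and VCL. They are known as targets of serum response factor (SRF) that build the actin cytoskeleton and, in smooth muscle, the contractile apparatus. The set was named by symbol, and it was chosen by how these genes responded to BAY-850 in earlier work on the same counts, ACTB in particular for differing in direction between the cell lines. Their response to BAY-850 is therefore given as a description with no p-value. Counts of members past a threshold are printed once beside the share of all genes, and nothing is read from them. Tests are kept for the comparison of untreated lines and for genes outside the set. The gene lists outside the set were also chosen with earlier results of these data known, which limits what their tests show. All 10 genes had enough counts to enter every comparison.

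RNA was sequenced from 2 established ovarian cancer cell lines, PA-1, a teratocarcinoma line, and SK-OV-3, an adenocarcinoma line. Each line was treated for 48 h, with the solvent DMSO alone or with BAY-850 at 5 µM, and each of the 4 groups had 3 biological replicates, giving 12 libraries. BAY-850 is a small molecule that keeps the bromodomain protein ATAD2 from binding acetylated histones, and the comparison with DMSO asks which transcripts differ after that treatment. Each line is a single model of its tumour type, so a difference between the lines cannot be told apart from a difference between tumour types. Per the paper's methods PA-1 was grown in DMEM and SK-OV-3 in RPMI medium, so culture medium cannot be separated from line either.

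SRF binds a short DNA element called the CArG box, and its activity at cytoskeletal genes depends on the cofactors MRTFA and MRTFB, which monomeric actin holds in the cytoplasm. When actin polymerizes the cofactors enter the nucleus, so that actin genes are both targets and regulators of the pathway. In smooth muscle the related cofactor myocardin (MYOCD) drives TAGLN, ACTA2, CNN1 and MYL9, whereas ACTB and ACTG1 encode the cytoplasmic actins that nearly every cell uses. ACTB is also a common internal standard for transcript measurements, which makes its level in treated cells of practical interest.

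All 10 are protein-coding genes, placed here by GENCODE release 29 on GRCh38 (hg38), the build of the deposited counts. The actin genes lie on the minus strand, with ACTB at chr7:5527147-5563784, ACTG1 at chr17:81509971-81523847 and ACTA2 at chr10:88935074-88991339. Of the calponin family, TAGLN at chr11:117199321-117204782, CNN1 at chr19:11538717-11550323 and CNN2 at chr19:1026581-1039068 are on the plus strand. The tropomyosin gene TPM1 at chr15:63042632-63071915 is on the plus and TPM2 at chr9:35681992-35690121 on the minus strand, and MYL9 at chr20:36541484-36551447 and VCL at chr10:73995193-74121363 are on the plus strand.

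Promoter windows from RefSeq (GRCh38.p14), reaching from 250 bases before to 50 bases after an annotated start, matched 7 of the 10 genes in 9 windows. They were searched for the CArG box, which has an A and T core between a CC and a GG pair and reads as the same kind of element on both strands. Windows of ACTG1 and CNN2 each held 1 box, and 1 window of SRF itself held 2. The windows of ACTA2, CNN1, TPM1, TPM2 and VCL held no exact match. Only a core of A and T alone was accepted, and only these windows were searched. A window without a match therefore does not show that a gene lacks the element. Among all 35116 windows 1.29% held the box. The stretches below are shown because they carry the element through which SRF acts, in capitals; each runs from 250 bases before the start to the box nearest it and at most 10 bases beyond. The ACTG1 stretch is chr17:81512874-81513049 on the minus strand, with the box beginning 94 bases before the start. It lies inside the ACTG1 gene as GENCODE release 29 draws it, and 18 of its 176 bases fall in an annotated exon of that gene. The CNN2 stretch is chr19:1026358-1026538 on the plus strand, with the box beginning 89 bases before the start, and it lies outside the annotated gene. The SRF stretch is chr6:43171019-43171268 on the plus strand, with boxes beginning 30 and 10 bases before the start, also outside the annotated gene. A match of letters is a description and does not show binding, and TAGLN, ACTB and MYL9 had no entry.
ACTG1: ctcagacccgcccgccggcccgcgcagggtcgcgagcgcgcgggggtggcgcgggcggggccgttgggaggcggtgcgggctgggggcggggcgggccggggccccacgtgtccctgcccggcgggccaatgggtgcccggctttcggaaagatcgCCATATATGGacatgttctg
CNN2: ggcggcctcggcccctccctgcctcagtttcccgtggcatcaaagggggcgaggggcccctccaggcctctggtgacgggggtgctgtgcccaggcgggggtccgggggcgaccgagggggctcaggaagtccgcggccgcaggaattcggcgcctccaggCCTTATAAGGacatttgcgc
SRF: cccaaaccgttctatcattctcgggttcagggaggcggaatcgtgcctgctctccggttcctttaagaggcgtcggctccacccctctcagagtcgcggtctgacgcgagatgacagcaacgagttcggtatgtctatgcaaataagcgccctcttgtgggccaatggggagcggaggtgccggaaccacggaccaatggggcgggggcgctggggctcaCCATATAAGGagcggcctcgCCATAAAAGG

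The libraries held between 34544505 and 51840233 expected counts. Markers of each line were summed, and single markers could go the other way. The 6 PA-1 markers summed to between 1367 and 1649 CPM, which are counts scaled to a common library size, in PA-1 and to at most 10.4 in SK-OV-3. The 7 SK-OV-3 markers summed to between 3201 and 4623 CPM in SK-OV-3 and to at most 1058 in PA-1. Among them KRT18 was lower in SK-OV-3 than in PA-1 (265 against 335 CPM in DMSO, adjusted p = 9.0e-05, edgeR) and KRT8 was close, at 596 against 532 CPM. The SK-OV-3 BAY-850 replicate 3 library stood apart: it had the highest total and the fewest genes with a count, 15629 against 17425 to 18414 in the others. Values that moved most when it was left out are given both ways. Levels are CPM after TMM scaling, which divides by a library size adjusted for composition, and fold changes are on the log2 scale with their standard error (SE).

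In DMSO the lines differed most in the smooth muscle type members. CNN1, which binds actin and restrains myosin in contractile cells, was 74.0-fold lower in SK-OV-3 than in PA-1, MYL9 was 51.6-fold lower and ACTA2 was 7.89-fold lower. TAGLN, by contrast, was level in both lines. Of the 10 genes 2 were higher and 7 lower in SK-OV-3 at an adjusted p under 0.05 (edgeR quasi-likelihood test), while 40.1% of the 16070 genes tested were higher and 40.2% were lower. The median log2 difference over the members was -0.40, from -6.21 to 0.55, and over all genes tested it was 0.0019.

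**Figure D1:**
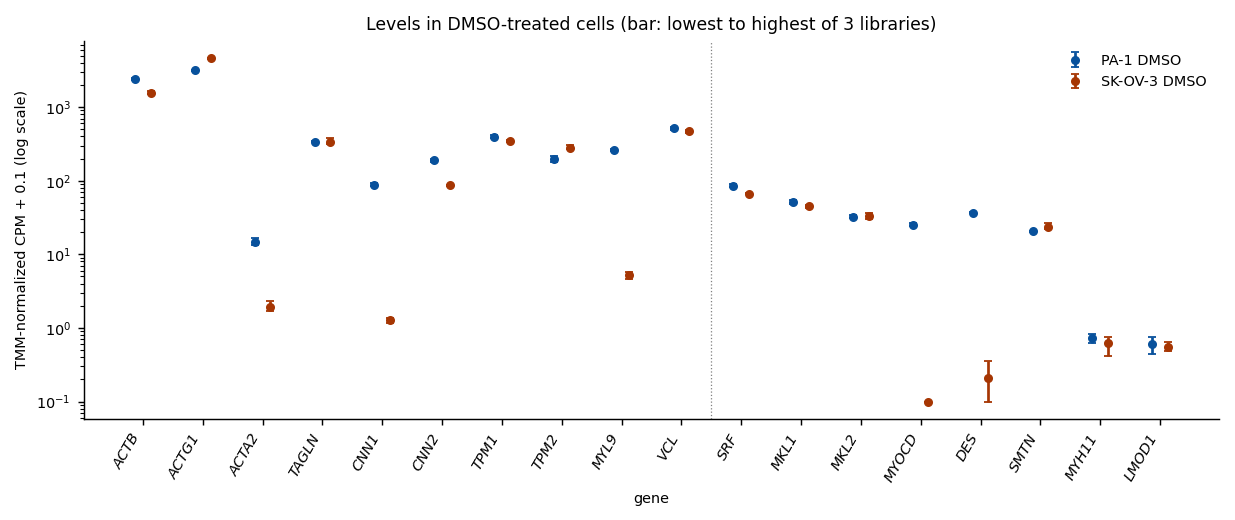
Levels of the 10 genes (left of the dotted line) and of SRF, its cofactors and smooth muscle markers (right) in DMSO-treated cells. The vertical axis is TMM-normalized CPM on a log scale with the small offset its label names, points are means and bars run from the lowest to the highest of 3 libraries. CNN1, MYL9 and MYOCD sit far lower in SK-OV-3, and the TAGLN points lie level.

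The cytoplasmic actins were the most abundant members. ACTB, which encodes beta-actin, stood at 2387, 2331 and 2496 CPM in the PA-1 DMSO libraries and at 2721, 2824 and 3019 CPM in PA-1 with BAY-850. In SK-OV-3 it stood at 1657, 1524 and 1536 CPM in DMSO and at 1150, 1125 and 1124 CPM with BAY-850. Every treated PA-1 library was above the PA-1 controls, and every treated SK-OV-3 library was below the SK-OV-3 controls. The log2 fold change was 0.24 ± 0.051 (SE) in PA-1 and -0.47 ± 0.044 (SE) in SK-OV-3, which is 1.18-fold higher and 1.38-fold lower. In DMSO, ACTB was 1.53-fold lower in SK-OV-3 than in PA-1 (adjusted p = 1.7e-07, edgeR), with no overlap of the libraries.

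ACTG1, which encodes gamma-actin, differed from ACTB in the order of the lines. It stood at 3182, 3132 and 3146.5 CPM in the PA-1 controls and at 3390, 3394 and 3451 CPM after BAY-850. In the SK-OV-3 controls it stood at 4660, 4554 and 4584 CPM, and after BAY-850 at 3645, 3590 and 3206 CPM. The treated libraries again lay wholly above the controls in PA-1 and wholly below them in SK-OV-3, with log2 fold changes of 0.11 ± 0.042 and -0.40 ± 0.041 (SE). In DMSO, ACTG1 was 1.46-fold higher in SK-OV-3 than in PA-1 (adjusted p = 7.9e-08, edgeR). ACTB made up 43.3% ± 0.85 (SD, n = 3) of the summed ACTB and ACTG1 counts in PA-1 DMSO libraries and 25.5% ± 0.66 in those of SK-OV-3. With BAY-850 that share was 45.5% ± 1.07 in PA-1 and 24.6% ± 1.18 in SK-OV-3, and within SK-OV-3 the controls ran from 25.1% to 26.2%. The treated SK-OV-3 libraries stood at 24.0%, 23.9% and 26.0%, so that the overlap came from replicate 3 and the other treated libraries lay below all controls. Counts of ACTB were not whole numbers in 11 of 12 libraries and those of ACTG1 in 12, since RSEM divides reads that fit several genes among them. GENCODE release 29 lists 30 pseudogenes of these actins, 3 of which have a row in the table, so the split between ACTB and ACTG1 is uncertain.

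ACTA2, the alpha-actin of smooth muscle, was the least abundant actin member. It stood at 13.4, 13.8 and 16.7 CPM in PA-1 DMSO and at 16.03, 17.2 and 15.3 CPM in PA-1 with BAY-850. In SK-OV-3 it stood at 2.19, 1.58 and 1.78 CPM in DMSO and at 2.07, 2.02 and 2.22 CPM with BAY-850. Treated and control libraries overlapped in both lines, with log2 fold changes of 0.14 ± 0.11 and 0.19 ± 0.30 (SE). ACTA2 overlaps FAS, STAMBPL1 and ACTA2-AS1 on the opposite strand. The strand setting of the counting is not given in the sources used here, so reads of these partners cannot be told apart from its own.

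**Figure D2:**
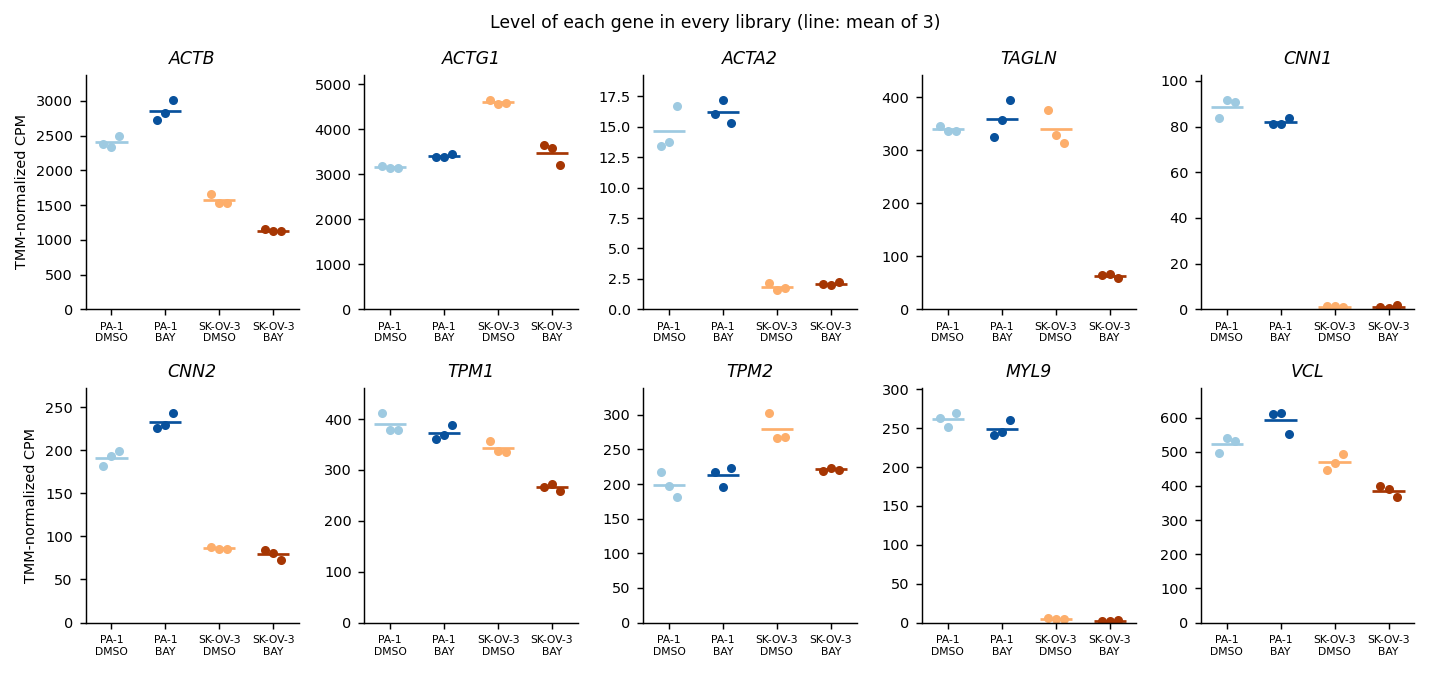
Level of each of the 10 genes in all 12 libraries, as TMM-normalized CPM on an axis starting at 0, with 1 panel a gene. Points are libraries and lines are means of 3. TAGLN in SK-OV-3 with BAY-850 lies between 59.1 and 66.1 CPM, below all other groups, and ACTB lies above its controls in PA-1 and below them in SK-OV-3.

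The calponin family members, which bind along actin filaments, behaved unlike one another. TAGLN (transgelin), an early marker of smooth muscle differentiation, stood at 347, 336 and 336 CPM in the PA-1 controls and at 325, 358 and 396 CPM after BAY-850. In the SK-OV-3 controls it stood at 377, 328 and 314 CPM and after BAY-850 at 64.9, 66.1 and 59.1 CPM. The PA-1 groups overlapped, and every treated SK-OV-3 library was far below every other library. The log2 fold change was 0.080 ± 0.066 (SE) in PA-1 and -2.42 ± 0.074 (SE) in SK-OV-3, a 5.34-fold lower level, and it was -2.38 without the SK-OV-3 BAY-850 replicate 3 library. The DMSO levels of TAGLN differed between the lines by 0.0037 ± 0.066 on the log2 scale (adjusted p = 0.96, edgeR). TAGLN overlaps PCSK7 on the opposite strand.

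CNN1, calponin 1, stood at 83.6, 91.8 and 90.5 CPM in PA-1 DMSO and at 81.3, 81.2 and 83.7 CPM in PA-1 with BAY-850, and the groups touched by a narrow margin. In SK-OV-3 it stood at 1.23, 1.26 and 1.08 CPM in DMSO and at 0.812, 0.617 and 1.70 CPM with BAY-850. The SK-OV-3 BAY-850 replicate 3 library held the highest CNN1 value of that line, and the log2 fold change of -0.17 ± 0.50 (SE) was -0.74 ± 0.41 without it. CNN2, calponin 2, which is found in many cell types outside muscle, stood at 181, 193 and 199 CPM in PA-1 DMSO and at 226, 230 and 243 CPM in PA-1 with BAY-850. In SK-OV-3 its values were 87.7, 85.7 and 84.9 CPM in DMSO and 83.9, 80.9 and 72.7 CPM with BAY-850. The CNN2 groups did not overlap in either line, and the log2 fold change was 0.28 ± 0.058 in PA-1 and -0.12 ± 0.061 in SK-OV-3 (SE), the latter -0.069 ± 0.058 without SK-OV-3 BAY-850 replicate 3. In DMSO, CNN2 was 2.21-fold lower in SK-OV-3 (adjusted p = 7.8e-10) and CNN1 was lower with an adjusted p of 2.9e-14 (edgeR).

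The tropomyosins TPM1 and TPM2 lie along actin filaments and set the access of myosin. TPM1 stood at 412, 379 and 379 CPM in PA-1 DMSO, at 361, 369 and 387 CPM in PA-1 with BAY-850, at 356, 338 and 335 CPM in SK-OV-3 DMSO and at 267, 273 and 259 CPM in SK-OV-3 with BAY-850. TPM2 in the same order of groups stood at 217, 198 and 181 CPM, at 218, 196 and 224 CPM, at 303, 267 and 268 CPM and at 220, 223 and 221 CPM. For both genes the PA-1 groups overlapped and the treated SK-OV-3 libraries lay below all controls of that line. The log2 fold change in SK-OV-3 was -0.36 ± 0.047 for TPM1 and -0.33 ± 0.058 for TPM2, and in PA-1 it was -0.069 ± 0.056 and 0.097 ± 0.071 (SE). The PA-1 values depended on single libraries, TPM1 being -0.028 and TPM2 0.17 without PA-1 DMSO replicate 1, and TPM2 being 0.036 without PA-1 DMSO replicate 3. In DMSO, TPM2 was 1.41-fold higher in SK-OV-3 (adjusted p = 4.1e-05) and TPM1 was 1.13-fold lower (adjusted p = 0.0077, edgeR). With library size alone as the scaling, TPM1 no longer passed (adjusted p = 0.053).

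MYL9 encodes a regulatory light chain of smooth muscle and nonmuscle myosin. It stood at 264, 252 and 270 CPM in PA-1 DMSO and at 241, 245 and 260 CPM in PA-1 with BAY-850, with overlap. In SK-OV-3 it stood at 5.73, 4.86 and 4.59 CPM in DMSO and at 1.99, 1.85 and 3.24 CPM with BAY-850, all treated libraries being lower. Its log2 fold change there was -1.08 ± 0.27 (SE), and -1.40 ± 0.21 without the SK-OV-3 BAY-850 replicate 3 library, which held the highest treated value. In DMSO, MYL9 was lower in SK-OV-3 with an adjusted p of 1.8e-14 (edgeR). VCL encodes vinculin, which links actin to cell adhesion sites. VCL stood at 495, 541 and 533 CPM in PA-1 DMSO, at 610, 613 and 551 CPM in PA-1 with BAY-850, at 445, 467 and 494 CPM in SK-OV-3 DMSO and at 401, 390 and 366 CPM in SK-OV-3 with BAY-850. As for the actins, the treated libraries were all above the controls in PA-1 and all below them in SK-OV-3, with log2 fold changes of 0.18 ± 0.058 and -0.28 ± 0.051 (SE). The DMSO difference of VCL was 1.11-fold, lower in SK-OV-3 (adjusted p = 0.024, edgeR), and it did not pass without PA-1 DMSO replicate 2 (adjusted p = 0.095), PA-1 DMSO replicate 3 (0.066), SK-OV-3 DMSO replicate 1 (0.064) or SK-OV-3 DMSO replicate 2 (0.072). VCL overlaps AP3M1, and MYL9 overlaps DLGAP4-AS1, on the opposite strand. The VCL difference also did not pass with library size as the only scaling, with ribosomal RNA genes (0.21) or without them (0.085).

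More of all genes tested passed an adjusted p of 0.05 with BAY-850 in SK-OV-3 than in PA-1 (edgeR). They were 1662 higher and 1468 lower in SK-OV-3, and 707 and 378 in PA-1. In SK-OV-3 the median log2 fold change of the 10 genes was -0.34, from -2.42 to 0.19, with 9 below 0. Over all 15348 genes tested it was -0.0091. In PA-1 the median was 0.10, from -0.11 to 0.28, with 7 above 0, and that of all 15212 genes tested was -0.0019. These contrasts chose the genes, so neither the medians of the 10 nor the following counts are evidence about them. In PA-1 2 of the 10, ACTB and CNN2, were higher at an adjusted p under 0.05 beside 4.65% of all genes tested, and 0 were lower beside 2.48%. The treated libraries of 4 genes (ACTB, ACTG1, CNN2 and VCL) were all above the controls beside 14.7% of all genes, and those of 0 were all below beside 12.7%. In SK-OV-3 7 of the 10 were lower beside 9.56%, and 0 were higher beside 10.8%, while the treated libraries of 8 were all below the controls beside 20.0% and of 0 all above beside 18.6%. The 0 members lower in PA-1 and higher in SK-OV-3 were also 0 at an unadjusted p under 0.05 and by DESeq2.

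**Figure D3:**
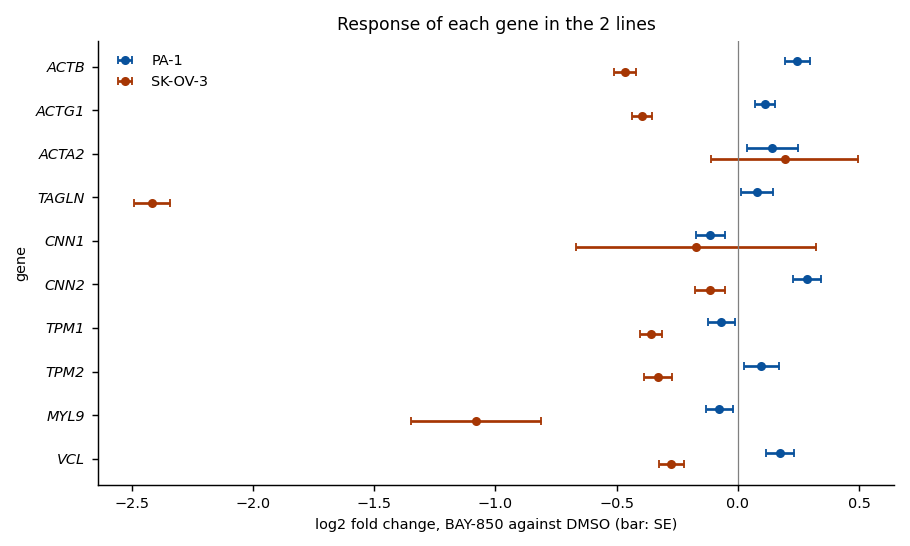
Log2 fold change of each of the 10 genes, BAY-850 against DMSO, in PA-1 and in SK-OV-3. Points are estimates over 3 against 3 libraries and bars are SE. TAGLN in SK-OV-3 lies at -2.42, and ACTB, ACTG1, CNN2 and VCL lie above 0 in PA-1 and below 0 in SK-OV-3.

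The 10 genes together took 0.749% ± 0.030 (SD, n = 3) of the counts in PA-1 DMSO and 0.806% ± 0.022 in PA-1 with BAY-850. The treated PA-1 libraries, at 0.788% to 0.831%, were all above the controls, at 0.726% to 0.782%. In SK-OV-3 the 10 genes took 0.788% ± 0.022 in DMSO and 0.579% ± 0.025 with BAY-850. The treated SK-OV-3 libraries, at 0.550% to 0.599%, were all below the controls, at 0.772% to 0.813%. Most of each sum was ACTB and ACTG1. Together these took a mean of 0.550% in PA-1 DMSO and 0.603% with BAY-850, and 0.632% and 0.474% in SK-OV-3. TAGLN per 100 ACTB counts, a ratio within a library that needs no scaling, was 21.6 ± 1.16 in SK-OV-3 DMSO and 5.59 ± 0.31 with BAY-850. In PA-1 the same ratio was 14.1 ± 0.58 in DMSO and 12.6 ± 0.59 with BAY-850. The treated libraries lay below the controls in both lines, by more in SK-OV-3. In PA-1 ACTB was higher with BAY-850, by 0.24 on the log2 scale, while TAGLN differed by 0.080 with overlap. The lower ratio in PA-1 therefore does not show a lower TAGLN level. In bulk RNA a smaller number of cells that express a gene and less of its RNA per cell cannot be told apart.

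Per kilobase of transcript, ACTG1 was the highest member in all 4 groups and ACTB the next. In PA-1 DMSO, ACTG1 stood at 1609 ± 13.2 CPM per kilobase (SD, n = 3) and ACTB at 1327 ± 46.1, followed by TPM1, TAGLN, TPM2, MYL9, CNN2, VCL, CNN1 and ACTA2, of which CNN2 and VCL overlapped. In SK-OV-3 DMSO the order was ACTG1, ACTB, TPM1, TAGLN, TPM2, VCL, CNN2, MYL9, ACTA2 and CNN1, with overlap of TPM1 and TAGLN. TAGLN held the fourth place in both untreated lines and in PA-1 with BAY-850. It was the sixth in SK-OV-3 with BAY-850, at 51.6 ± 3.04 CPM per kilobase, where ACTA2 overlapped MYL9 and MYL9 overlapped CNN1. Transcript lengths were medians over coding transcripts in GENCODE release 29, from 1100 bases for TPM1 to 5989 bases for VCL.

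ACTB was next set against 16 reference genes that expression assays often use, as the ratio of their counts within a library. All 16 ratios share ACTB, which was chosen for its direction in each line, so how many of them moved together is not evidence about it. In SK-OV-3 the ratio was lower with BAY-850 for all 16 on average, with no overlap of libraries for 15, the exception being POLR2A. The log2 change ran from -0.83 against PGK1 to -0.056 against POLR2A, with a median of -0.48. In PA-1 the ratio was higher on average for 12 and lower for 4, TFRC among them at -0.53, with a highest value of 0.51 against B2M and a median of 0.24. Against GAPDH, the glycolytic enzyme often paired with ACTB, the ratio was 0.433 ± 0.0098 (SD, n = 3) in PA-1 DMSO and 0.432 ± 0.014 with BAY-850, with overlap. In SK-OV-3 it was 0.698 ± 0.0035 in DMSO and 0.419 ± 0.015 with BAY-850, 1.67-fold lower. GAPDH itself rose in both lines, with log2 fold changes of 0.25 in PA-1 (adjusted p = 0.012) and 0.27 in SK-OV-3 (adjusted p = 0.0022, edgeR). Of the 16 reference genes, 4 rose, 1 fell and 11 did not pass in PA-1, and 3 rose, 1 fell and 12 did not pass in SK-OV-3. Over all genes tested, 4.65% rose and 2.48% fell in PA-1, and 10.8% rose and 9.56% fell in SK-OV-3. TFRC, the transferrin receptor, rose by 0.77 in PA-1 (adjusted p = 2.1e-06), whereas RPL13A, RPLP0, EEF1A1, SDHA and GUSB had log2 values between -0.017 and 0.039 there, and in SK-OV-3 YWHAZ, GUSB, RPL13A, SDHA and EEF1A1 lay between -0.0064 and 0.041.

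**Figure D4:**
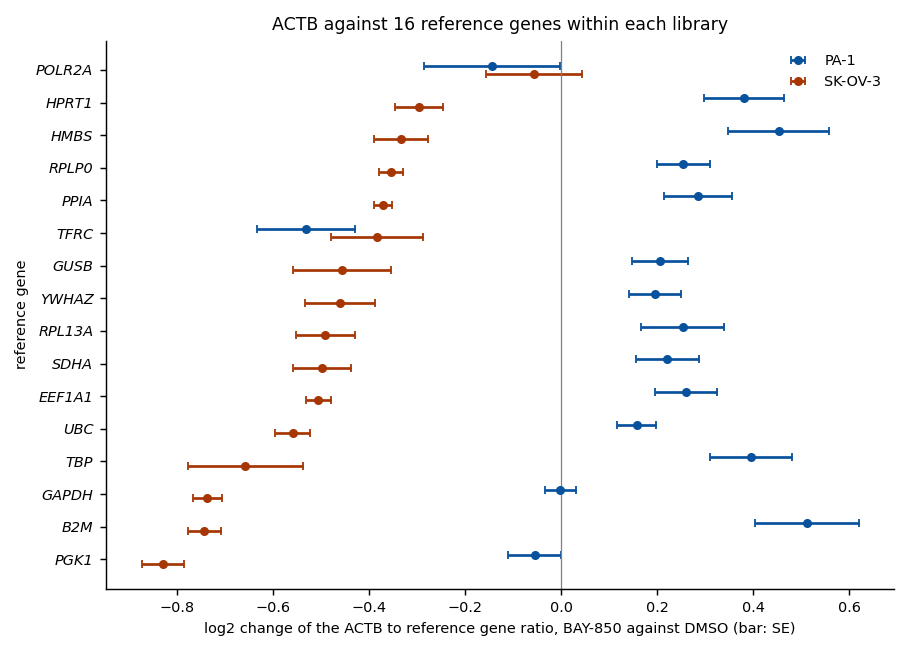
Log2 change of the ratio of ACTB counts to those of 16 reference genes, BAY-850 against DMSO, in each line. Points are differences of means over 3 libraries and bars are SE. All SK-OV-3 points lie below 0, and most PA-1 points lie above 0 with GAPDH close to it. Every ratio shares ACTB, so the points are not independent.

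Transcripts of SRF, MRTFA and MRTFB were present in both lines, and MYOCD in PA-1. SRF ranged from 81.2 to 89.6 CPM in PA-1 DMSO, from 85.6 to 93.4 CPM in PA-1 with BAY-850, from 65.9 to 67.7 CPM in SK-OV-3 DMSO and from 55.0 to 68.6 CPM in SK-OV-3 with BAY-850. MRTFA and MRTFB, listed under their older names MKL1 and MKL2, stood at means of 50.9 and 32.3 CPM in PA-1 DMSO and of 44.6 and 33.4 CPM in SK-OV-3 DMSO. Among the 8 genes that could be tested for PA-1 and the 7 for SK-OV-3, 0 passed an adjusted p of 0.05 in either line (edgeR). At an unadjusted p under 0.05, 1 was lower in PA-1, and 1 was higher and 1 lower in SK-OV-3, where DESeq2 called 1 lower. MYOCD ranged from 24.0 to 26.9 CPM in PA-1 DMSO and had a count of 0 in all SK-OV-3 DMSO libraries, at least 324-fold lower against a floor of 3 counts per library. In untreated cells 3 of the 8 were higher in SK-OV-3 and 4 lower, beside 40.1% and 40.2% of all 16070 genes tested (edgeR). FHL2 was higher by 1.81 on the log2 scale (adjusted p = 1.8e-11) and ELK4 by 0.54 (adjusted p = 7.6e-07, edgeR).

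Markers of smooth muscle were present in part. MYH11, the smooth muscle myosin heavy chain, and LMOD1, an actin nucleator of smooth muscle, had means under 1 CPM in every group, whereas DES (desmin) had a mean of 36.8 CPM in PA-1 DMSO and 0.110 CPM in SK-OV-3 DMSO. SMTN (smoothelin) had means of 20.4 and 23.6 CPM and SYNM (synemin) of 31.2 and 48.4 CPM in the same groups. Of the 12 markers, whose summed level was 114 to 121 CPM in PA-1 DMSO and 72.3 to 75.9 CPM in SK-OV-3 DMSO, 5 reached 1 CPM in PA-1 DMSO and 2 in SK-OV-3 DMSO. Among the markers tested, SMTN was lower with BAY-850 in SK-OV-3 by 0.73 on the log2 scale (adjusted p = 0.0010) and SYNM by 0.45 (adjusted p = 0.0065), and in PA-1 SMTN was higher by 0.29 (adjusted p = 0.034). These were the calls among 6 markers tested in SK-OV-3 and 9 in PA-1. Of all genes tested, 9.56% were lower in SK-OV-3 and 4.65% higher in PA-1. SMTN is also counted among the contractile genes below, and its call in PA-1 held in 6 of 15 alternative fits. Other actin genes were low: ACTA1, the skeletal muscle actin, had a mean of 14.4 CPM in PA-1 DMSO and 0.0859 in SK-OV-3 DMSO, and 0 of 6 tested in PA-1 and 0 of 2 in SK-OV-3 passed, nor did any at an unadjusted p under 0.05 or by DESeq2.

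Among 22 other contractile and stress fibre genes, 7 rose and 0 fell in PA-1, while 1 rose and 10 fell in SK-OV-3 (edgeR). As shares of all genes tested, 4.65% rose and 2.48% fell in PA-1, and 10.8% rose and 9.56% fell in SK-OV-3, which holds as background for the lists that follow. The lists were chosen with earlier results of these data known, so their counts are a description. The difference between the lines passed for 1 higher and 11 lower of the 22, beside 14.5% of all 16830 genes tested in either direction. In PA-1 the actin crosslinkers FLNA and FLNC rose by 0.38 ± 0.060 and 0.32 ± 0.065 and MYH10, a nonmuscle myosin heavy chain, by 0.30 ± 0.067 on the log2 scale (adjusted p = 0.0016, 0.010 and 0.015). In SK-OV-3 SMTN fell by 0.73, PDLIM7 by 0.51 ± 0.078 and MYL6, an essential myosin light chain, by 0.31 ± 0.067 (adjusted p = 0.0010, 0.00096 and 0.0071). The median over the list was 0.094 in PA-1 and -0.17 in SK-OV-3, beside -0.0019 and -0.0091 over all genes tested. The PA-1 count was 1 without PA-1 DMSO replicate 1, PA-1 DMSO replicate 2 or PA-1 BAY-850 replicate 2, 3 without PA-1 BAY-850 replicate 1, 1 with library size as the only scaling and 2 with a trend on GC content removed, and the last setting left 4 of the 10 in SK-OV-3. The 0 lower genes in PA-1 compare with 1 at an unadjusted p under 0.05 and 0 by DESeq2. FLNC was expressed at a mean of 2326 CPM in PA-1 DMSO and 3.05 in SK-OV-3 DMSO, whereas CSRP1, a LIM protein of actin bundles, stood at 0.945 and 163 CPM.

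**Figure D5:**
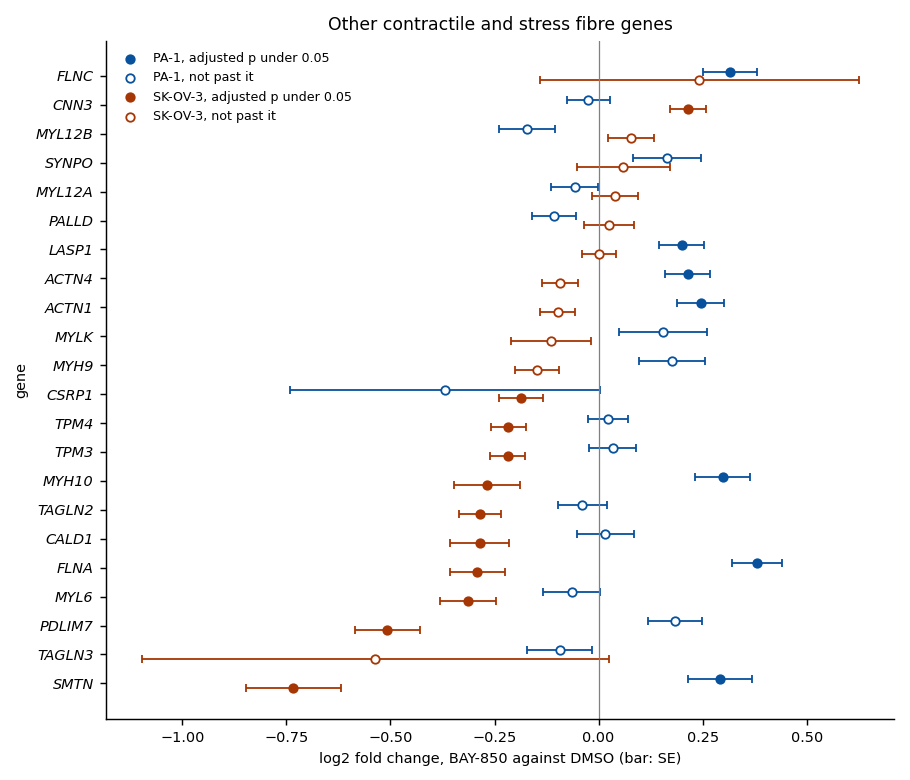
Log2 fold change of 22 other contractile and stress fibre genes, BAY-850 against DMSO. Filled points passed an adjusted p of 0.05 in edgeR, open points did not, and bars are SE. FLNA, FLNC and MYH10 are filled above 0 in PA-1, and SMTN, PDLIM7 and MYL6 are filled below 0 in SK-OV-3.

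Fewer genes passed in the lists of adhesion and assembly. Of 20 focal adhesion genes, the partners of VCL, 1 rose in PA-1, TLN1 (talin) by 0.43 ± 0.072 (adjusted p = 0.0023), and in SK-OV-3 2 rose and 5 fell, LIMS2 by 0.56, LIMS1 by 0.27 and PARVA by 0.25. The share that rose, 2 of 20, was near the background. That count of 5 was 3 without SK-OV-3 DMSO replicate 1 or SK-OV-3 BAY-850 replicate 1, 1 without SK-OV-3 DMSO replicate 2, and 2 without SK-OV-3 DMSO replicate 3 or SK-OV-3 BAY-850 replicate 2. It was also 2 with library size only or with the GC trend removed, and the PARVA call held in 8 of 15 alternative fits. Of 28 actin assembly and turnover genes, 0 passed in PA-1, beside 4 higher and 2 lower at an unadjusted p under 0.05 and 3 and 1 by DESeq2, and in SK-OV-3 5 fell, among them the severing protein GSN by 0.31 and the formin DIAPH1 by 0.28. That count was 3 without SK-OV-3 DMSO replicate 2 or with the GC trend removed, and 8 without SK-OV-3 BAY-850 replicate 3.

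Markers of other cell types were read beside these values. Fibroblast markers summed to 182 to 192 CPM in SK-OV-3 DMSO and to 90.0 to 119 CPM with BAY-850, and 3 of 8 tested fell. Most of that sum was COL1A1, at means of 167 CPM in DMSO and 97.6 CPM with BAY-850. In SK-OV-3 DMSO 3 of 9 markers reached 1 CPM, and DCN had a mean of 0.0086 CPM. THY1, with means under 1 CPM in both SK-OV-3 groups, was higher on average with BAY-850. LUM fell by 2.25 and COL1A2 by 1.15 on the log2 scale (adjusted p = 0.00011 and 0.00096), in the same libraries in which TAGLN was lower. SK-OV-3 markers, of which 4 of 7 fell and 1 rose, summed to 4347 to 4623 CPM in DMSO and to 3201 to 3681 CPM with BAY-850, EPCAM falling by 0.98 and PAX8 rising by 0.55. In PA-1 the fibroblast markers summed to 542 to 657 CPM in DMSO and to 689 to 737 CPM with BAY-850, with 1 of 6 tested higher. Most of that sum too was COL1A1, at means of 462 CPM in DMSO and 582 CPM with BAY-850. Leukocyte markers summed to at most 4.15 CPM in PA-1 and 40.4 in SK-OV-3, nearly all of it CD68, with PTPRC among those below 1 CPM. The part of any of these in the TAGLN or actin values was not tested.

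Genes were ranked by their likeness to TAGLN, and to ACTB, over the 12 libraries, by Pearson's r of log2 CPM. Only genes outside the set with a mean of at least 1 CPM were ranked, so the other members were not compared. Most like TAGLN were XRCC5, FOXM1, SSR3, ALDH7A1 and MAP1A, with r from 0.97 to 0.98. Their levels were close between the untreated lines and lower in SK-OV-3 with BAY-850, as for MAP1A, a microtubule-associated protein, with means of 6.08, 6.75, 5.07 and 1.66 CPM in PA-1 DMSO, PA-1 BAY-850, SK-OV-3 DMSO and SK-OV-3 BAY-850. XRCC5, the Ku80 DNA repair protein, had means of 418, 424, 395 and 282 CPM in the same order. The genes most like ACTB were CBX5, GPC1, MCM7, AAAS and HNRNPL, with r from 0.99 to 1.00, and MCM7, a replication helicase subunit, had means of 156, 183, 85.5 and 60.4 CPM. These libraries fall into 4 groups that share line and treatment, so r describes the order of the groups more than variation between libraries.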

How the data were processed

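Total RNA of 12 samples was made into stranded libraries from oligo-dT selected mRNA per the labels, whereas the series' design text names ribosomal RNA depletion. Each deposited value is an expected count from RSEM for 1 gene symbol in 1 library, not normalized between libraries. RSEM divides reads that fit several genes. The submitters' processing notes name Bowtie2 2.1.0, RSEM 1.2.15 and hg38. The annotation and the strand setting are not given in the sources used here. Totals per library ran from 34544505 to 51840233 counts, and ribosomal RNA genes took 7.94% to 16.9%.

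Expected counts were rounded, scaled by TMM and filtered with filterByExpr in edgeR 4.0.16 (R 4.3.3). Quasi-likelihood tests compared BAY-850 with DMSO within each line, the lines under DMSO, and the interaction in all 12 libraries, without a replicate term, with Benjamini-Hochberg adjustment over all genes tested. The SE is the log2 fold change divided by the square root of F. P-values measure the spread between biological replicates. Replicate libraries differed by more than counting error, with 5.05 to 72.7 times the chi-square that counting error gives. Steps were tested on simulated data.

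The members and the 11 gene lists were chosen with earlier results of these data known. Another list and 1 gene of the contractile list are not reported here. Named were all members, up to 3 genes per list and line with the largest change past an adjusted p of 0.05 and a mean of at least 1 CPM, any SRF cofactor or actin gene, markers, reference genes with the smallest changes, GAPDH, and the 5 genes most like TAGLN and ACTB. Alternatives were DESeq2 1.42.0, RLE size factors, library size with and without ribosomal RNA genes, no filter, at least 10 counts in every library, a replicate block, all 12 libraries in one fit, leaving out each library and, chosen after seeing the data, removal of a loess trend on GC content (transcripts of GENCODE release 29, matched for 92.9% of symbols).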

Additional observations from a re-analysis of the deposited data

Results flagged for a closer look

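The members ACTB, ACTG1, CNN2 and VCL had every treated library above the controls in PA-1 and below them in SK-OV-3, and no test of the difference between the lines is given for them because the set was chosen for it, so the difference counts as not tested. Their log2 fold changes in PA-1 and SK-OV-3 were 0.24 and -0.47 for ACTB, 0.11 and -0.40 for ACTG1, 0.28 and -0.12 for CNN2, and 0.18 and -0.28 for VCL. Removal of the GC trend left 0.18 for ACTB, 0.042 for ACTG1 and 0.19 for CNN2 in PA-1. CNN2 in SK-OV-3 was -0.069 without SK-OV-3 BAY-850 replicate 3. Over all genes tested, 14.7% had every treated library above the controls in PA-1, and 20.0% had every one below them in SK-OV-3. The share of genes with both was not computed.

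Among 25 genes of the other lists named for their change in either line, the response differed between the lines for 17 by the interaction term (edgeR, adjusted p under 0.05), as SK-OV-3 minus PA-1 on the log2 scale. These genes were picked for a large change in 1 line, which favours such a difference, and 14.5% of all genes tested passed. It was negative for 16: LUM at -2.35, COL1A2 at -1.14, COL1A1 at -1.11, KRT19 at -1.10, SMTN at -1.04, TFRC at -0.87, POLR2A at -0.80, PDLIM7 at -0.70, FLNA at -0.68, MYH10 at -0.58, TLN1 at -0.55, SYNM at -0.53, DIAPH1 at -0.44, GSN at -0.42, PARVA at -0.38 and WDR1 at -0.38. It was positive for B2M at 0.54. PARVA passed in 10 and SYNM in 12 of 20 alternative fits.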

How the results depend on the processing

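The direction of ACTB, ACTG1, CNN2 and VCL in each line and of TAGLN, TPM1, TPM2 and MYL9 in SK-OV-3 was the same under all 15 alternatives of each line, with ACTB from 0.18 to 0.28 in PA-1 and from -0.48 to -0.42 in SK-OV-3 and TAGLN from -2.47 to -2.33 in SK-OV-3. TAGLN in PA-1 ran from -0.0071 to 0.15 and CNN1 in SK-OV-3 from -0.74 to 0.098. The largest median shift over all genes was 0.099 on the log2 scale, for the difference between the lines with the GC trend removed. For scale, the median of the 10 genes in PA-1 was 0.10. The median over all genes does not bound the shift of a single gene. In PA-1 the same setting moved that median by -0.023 and took ACTG1 from 0.11 to 0.042. Over all genes tested, the PA-1 counts were 707 higher and 378 lower. Under DESeq2 667 were lower, with no filter 588 were lower, with library size only 235 were higher and 231 lower, with the GC trend removed 393 and 144, and with all 12 libraries in one fit 469 and 214. Library size only left 773 lower, of 1307, for the difference between the lines. Leaving out each library gave 273 to 810 higher and 65 to 418 lower genes in PA-1, and 993 to 2050 and 788 to 1852 in SK-OV-3, where the counts with all libraries were 1662 and 1468. It gave 826 to 1287 and 960 to 1320 for the difference between the lines, and 6243 to 6421 and 6299 to 6508 between the untreated lines. The cause of these shifts was not tested. Same-numbered replicates did not deviate together (r from -0.032 to 0.044 over 9 pairs of libraries). These values cannot show whether same-numbered samples were cultured or treated together. With the replicate block 624 genes were higher and 307 lower in PA-1 and 1449 and 1267 in SK-OV-3. Depth limits CNN1, MYL9 and ACTA2 in SK-OV-3, which lay under 6 CPM.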
